A study of Mus musculus with 2 samples.

Results

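The regions described here are the germline methylated promoter regions of 10 imprinted genes, Peg3, Snrpn, Kcnq1ot1, Peg10, Mest, Airn, Grb10, Plagl1, Nnat and Impact. Each was taken as a window of 10 kb at a fixed mm9 position, out of 253255 such windows of the genome that held a tag, with 50 kb on either side as its flanks. KDM2A-bound DNA was measured by ChIP-seq in 1 library, and fragmented chromatin without antibody in 1 input library, both from V6.5 mouse ESCs. These cells come from a cross of C57BL/6 and 129/sv mice, although the strain field of both libraries names C57BL/6 alone, and they had been moved from fibroblast feeders to gelatin before use. Cells were fixed with EGS, which joins proteins to one another, and then with formaldehyde. There was no second condition and no replicate, so that every test compares tags of the 2 libraries, or of different genes within the ChIP library, and covers counting error only.

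KDM2A is a histone demethylase that acts on H3K36me2, and its ZF-CxxC zinc finger binds CpG dinucleotides that carry no methyl group. At an imprinted gene 1 parental copy is expressed and the other is silent. A differentially methylated region is set in the egg or the sperm and kept through development. At the genes studied here the methylated copy is the maternal one, the island on the paternal chromosome stays free of methylation, and most of the genes are expressed from that chromosome. Where this pattern is kept in ESCs, such a region offers both states of the same sequence to a ZF-CxxC protein. The deposited tags carry a position and a strand but no bases, so that maternal and paternal tags cannot be told apart, and methylation itself was not measured in these libraries.

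The ChIP library held 10042076 tags and the input library 9760426, of which 4.75% and 20.4% were further tags at an already occupied position and strand. Tags were counted in bins of 250 bp, and the genome mean was 0.991 for ChIP. A call required that the ChIP tags of a bin exceeded the genome mean, or the scaled input of the surrounding 5 kb if larger, at an adjusted p under 0.01, by a one-sided exact Poisson test over all bins. Called bins no more than 500 bp apart were joined into a cluster, and the height of a cluster or window is the ChIP tag number of its highest bin. No mm9 gene annotation was used, so exons, introns and CpG islands were not placed in the windows. The chromosome of all 10 genes in the RefSeq annotation is the one given for the window.

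Sequences before gene starts are shown because a ZF-CxxC domain binds CpG and the number of CpGs varied widely between the genes. The RefSeq table for GRCm38.p6 held promoter windows of 300 bases for 8 of the 10 genes, at 14 starts, and they were matched by symbol and not by position. They are therefore not placed within the mm9 windows, and the sequence under the highest bins was not read. The 250 bases before the start are printed for 4 genes, 5′ to 3′ on the gene's strand, with each CpG in capitals. They are Mest, which had the highest bin, Peg3, which had the lowest, Plagl1, which had more CpGs than Mest and a lower bin, and Airn, which had few CpGs.

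Mest, chr6:30737800-30738049, plus strand: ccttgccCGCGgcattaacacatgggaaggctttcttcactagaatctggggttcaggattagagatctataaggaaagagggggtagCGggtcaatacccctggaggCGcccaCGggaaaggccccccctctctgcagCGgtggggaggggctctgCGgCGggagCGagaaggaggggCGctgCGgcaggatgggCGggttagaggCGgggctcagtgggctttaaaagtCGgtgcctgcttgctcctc

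Peg3, chr7:6730420-6730669, minus strand: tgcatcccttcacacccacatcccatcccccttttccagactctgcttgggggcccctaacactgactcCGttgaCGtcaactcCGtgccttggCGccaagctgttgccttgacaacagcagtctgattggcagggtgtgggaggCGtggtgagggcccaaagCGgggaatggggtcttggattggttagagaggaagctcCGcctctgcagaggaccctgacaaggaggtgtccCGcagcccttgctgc

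Plagl1, chr10:13090582-13090831, plus strand: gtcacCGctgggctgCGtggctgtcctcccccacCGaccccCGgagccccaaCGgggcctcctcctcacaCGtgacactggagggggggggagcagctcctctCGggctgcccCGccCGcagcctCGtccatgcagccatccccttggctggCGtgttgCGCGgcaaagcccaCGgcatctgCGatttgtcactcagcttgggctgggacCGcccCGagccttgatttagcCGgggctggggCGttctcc

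Airn, chr17:12741061-12741310, plus strand: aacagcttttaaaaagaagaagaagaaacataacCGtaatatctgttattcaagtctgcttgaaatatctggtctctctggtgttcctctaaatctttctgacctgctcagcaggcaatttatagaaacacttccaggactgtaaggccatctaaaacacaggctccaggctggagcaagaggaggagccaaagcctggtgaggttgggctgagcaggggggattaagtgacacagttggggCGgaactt

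In the stretches printed above, Mest has 14 CpGs, Peg3 8, Plagl1 19 and Airn 2. For genes with several starts the one with the most CpGs is meant unless stated. Over the whole 300 bases of the table, which add 50 bases after the start, Mest has 17 CpGs, Peg3 13, Plagl1 26 and Airn 3, where the median of all 32851 promoter windows is 7. The Airn window is therefore poor in CpG, with 23.3% of all promoter windows holding fewer, and that of Plagl1 is rich, with 83.1% holding fewer. Among the other genes, Nnat has 17 CpGs and Kcnq1ot1 9, and the richest of the starts of Snrpn has 7. Grb10 has 45 CpGs at 1 start and 9 at the other. The hexamer TGCCGC, which in its methylated form is bound by the imprint-keeping zinc finger protein ZFP57, was searched on both strands. It is present at 1 or more starts of Mest, Snrpn, Grb10, Plagl1 and Nnat, whereas Peg10 and Impact had no sequence to search. Mest, Snrpn and Grb10 also had starts without it. Of all promoter windows 11.6% held it, a share that counts windows and not genes. A match says only that these letters occur there.

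KDM2A tags were concentrated near the middle of all 10 windows. Each window held at least 1 called bin, against 13.7% of all 10 kb windows of the genome, and the middle of the highest bin lay 4.38 to 6.63 kb into the window. Of the 400 bins in the windows, 42 were called (10.5%), against 1.06% of all bins. In the flanks, by the same test, 39 of 3868 bins were called (1.01%), close to the level of the genome. With ChIP and input exchanged, 0 bins of the windows and 3 of the flanks were called, against 0.145% of all bins. That exchanged Poisson test used the ChIP tags of the surrounding 5 kb where these exceeded the genome mean. ChIP tags were high within the windows, which made a call there unlikely, so the 0 is no control. With the genome mean alone, 5 window bins were called. At an unadjusted p under 0.05, 13 window bins passed the exchanged Poisson test and 87 that of ChIP against input. No share of all bins is given here for these last counts. The windows were chosen at promoters, and most windows of the genome hold none, so the share of all windows is no background for promoters. In the plot of tags by bin the ChIP tags rise to between 9 and 30 per bin, and no input bin of the 10 windows exceeds 9 tags.

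**Figure D1:**
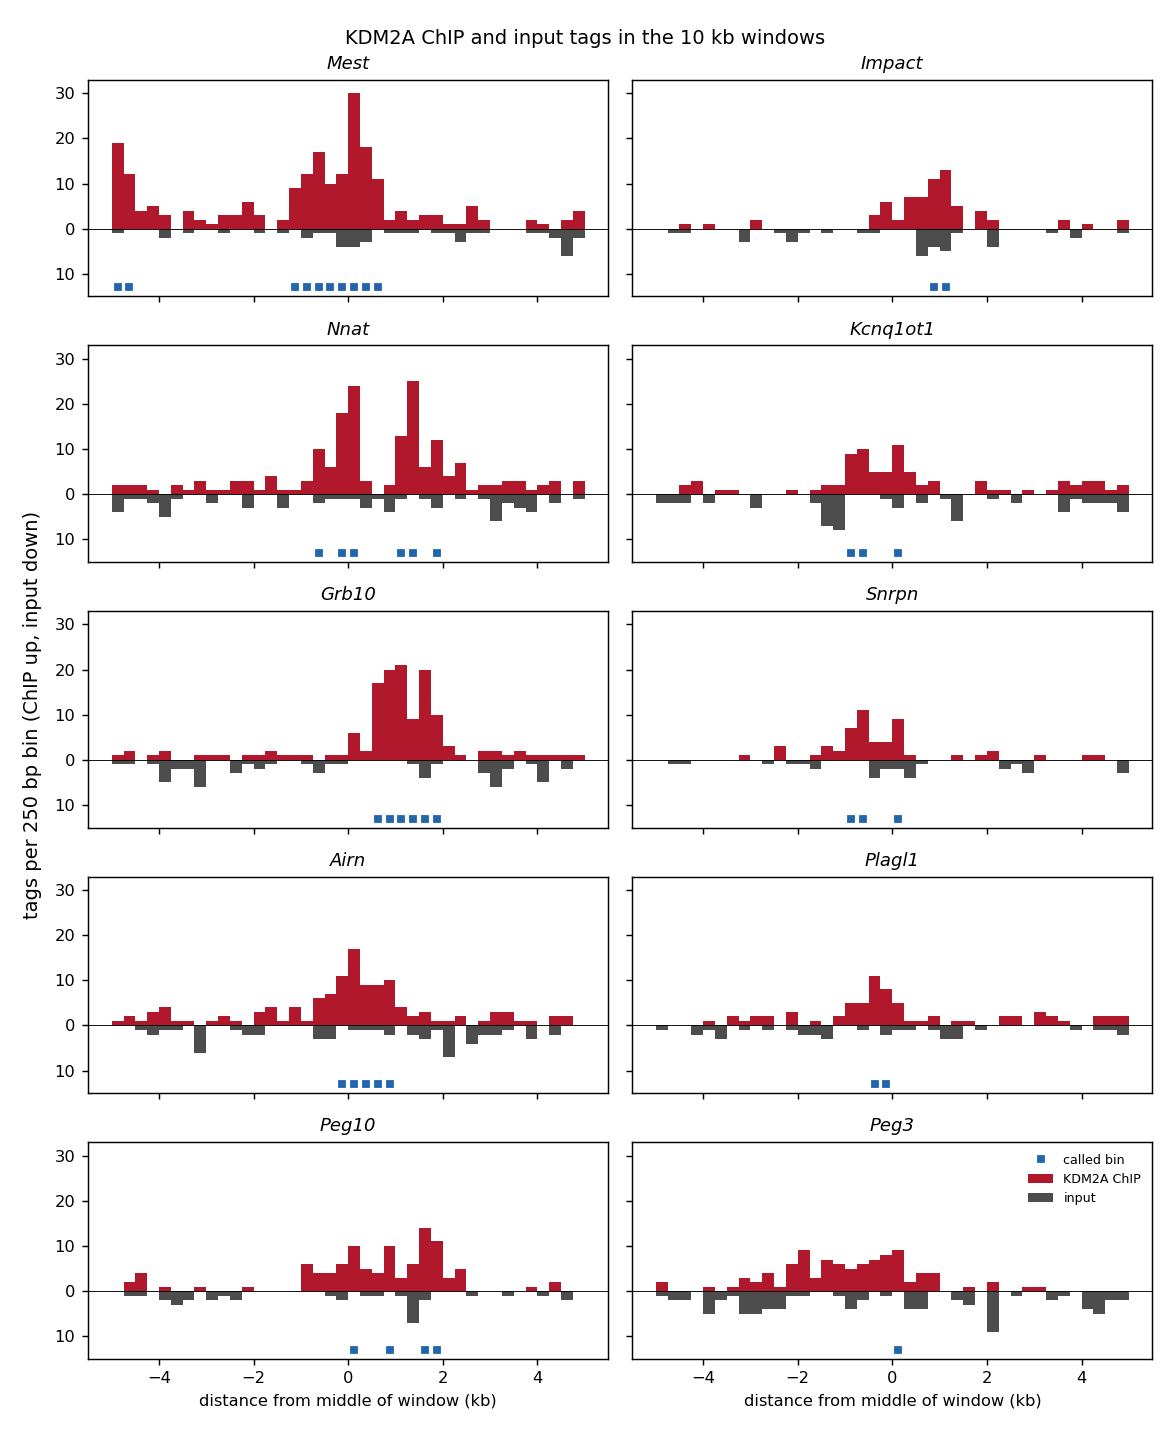
KDM2A ChIP tags (red, upward) and input tags (grey, downward) per 250 bp bin across the 10 kb window of each gene, by distance from the middle of the window in kb, with called bins as blue squares. Mest reaches 30 tags in a bin and Peg3 reaches 9, and the middle of every highest bin lies between 4.38 and 6.63 kb from the start of its window.

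The highest bins spanned a 3.33-fold range. The bin with the most tags was at Mest (chr6:30688001-30688250), with 30 ChIP tags and 4 input tags (exact Poisson test, adjusted p = 4.49e-27). Mest encodes a protein of the alpha/beta hydrolase family first found in mesoderm. At Nnat, the gene of neuronatin, a small membrane protein of brain and endocrine cells, the highest bin (chr2:157387251-157387500) held 25 ChIP tags and 0 input tags (exact Poisson test, adjusted p = 2.26e-17). At Grb10, an adaptor that restrains insulin and growth factor receptors, it held 21 ChIP tags and 0 input tags (chr11:11926001-11926250, exact Poisson test, adjusted p = 1.59e-16). These 3 genes formed the upper end of the order, and their 95% Poisson intervals of 20.2 to 42.8, 16.2 to 36.9 and 13.0 to 32.1 tags overlapped.

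Airn, a long noncoding RNA that runs antisense to the growth factor receptor gene Igf2r and silences it in cis, had 17 ChIP tags and 1 input tag in its highest bin (chr17:12935001-12935250, exact Poisson test, adjusted p = 9.86e-10). Peg10, a retrotransposon-derived gene needed for the placenta, had 14 ChIP tags and 2 input tags (chr6:4698501-4698750, exact Poisson test, adjusted p = 1.35e-09). Impact, which limits activation of the kinase GCN2, had 13 ChIP tags and 5 input tags (chr18:13132001-13132250, exact Poisson test, adjusted p = 1.97e-07). Impact thus had the most input tags of any member's highest bin.

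Kcnq1ot1, Snrpn and Plagl1 had 11 ChIP tags each in their highest bin. For Kcnq1ot1, a long noncoding RNA that silences its neighbours on the paternal chromosome, the bin held 3 input tags (chr7:150482001-150482250, exact Poisson test, adjusted p = 2.01e-04). For Snrpn, which encodes a spliceosomal Sm protein, it held 0 input tags (chr7:67149251-67149500, exact Poisson test, adjusted p = 1.97e-06). For Plagl1, a zinc finger transcription factor, it also held 0 input tags (chr10:12810501-12810750, exact Poisson test, adjusted p = 6.89e-06). Peg3, a large zinc finger gene, was the lowest of the 10, with 9 ChIP tags and 0 input tags (chr7:6683001-6683250, exact Poisson test, adjusted p = 0.00857). Another bin of the Peg3 window also held 9 tags and was not called (exact Poisson test, adjusted p = 0.0420).

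**Figure D2:**
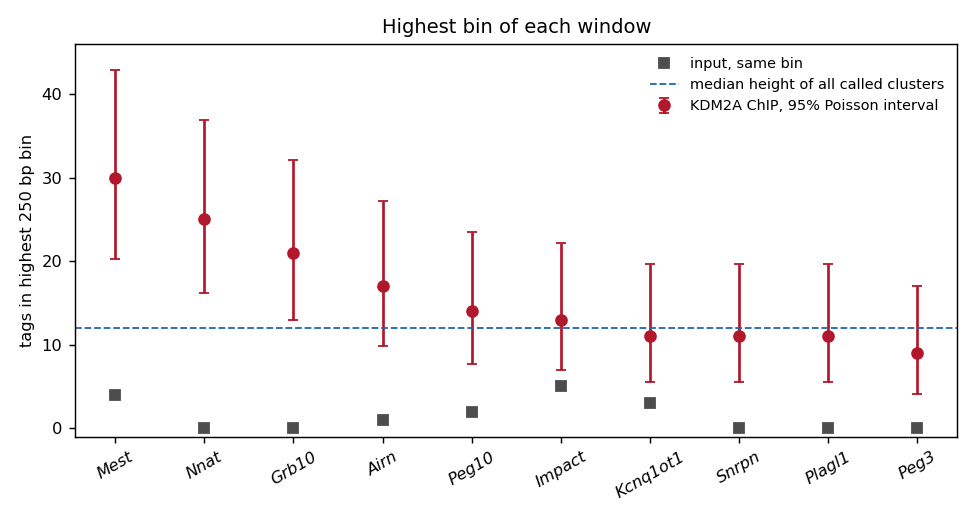
Tags in the highest 250 bp bin of each window, in order of height, for KDM2A ChIP (red circles with 95% Poisson intervals) and for input in the same bin (grey squares). The dashed line is the median height of all called clusters, 12 tags, which 6 of the 10 genes exceed.

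No gene in this order differed from the next one beyond counting error, with adjusted p of 0.913 or more in all 9 neighbouring pairs (exact binomial test, Benjamini-Hochberg over 45 pairs). The ratio of Mest to Nnat was 1.20, with a 95% interval of 0.682 to 2.13. Each height is the largest of 40 bins, picked by the same tags, and neither this test nor the Poisson intervals account for that choice. Of the 45 pairs, 4 passed an adjusted p of 0.05, all of them with Mest as the higher gene. The ratio was 0.300 for Peg3 over Mest (95% interval 0.125 to 0.648, adjusted p = 0.0479, exact binomial test). It was 0.367 for Snrpn and for Kcnq1ot1 over Mest and 2.73 for Mest over Plagl1 (adjusted p = 0.0486 for each, exact binomial test). These 4 calls were lost after repeated tags at a position and strand were dropped, where the highest bin of Mest had 25 tags, and with the bin grid moved by 0.5 of a bin.

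Over a wider span, the 9 bins centred on the highest one, Mest and Grb10 stood above the other genes in ChIP tags. Mest held 116 ChIP tags and 17 input tags there, and Grb10 108 and 6. The remaining genes held between 38 ChIP tags, at Plagl1, and 74, at Airn, with 7 to 20 input tags. Counted over this span, a choice made after the data were seen, 22 of the 45 pairs passed an adjusted p of 0.05 by the exact binomial test. Mest was higher than every gene except Grb10, for which the ratio was 1.07 (95% interval 0.819 to 1.41). Grb10 was likewise higher than the 8 genes other than Mest. At Nnat this span leaves out the other called cluster of the window, and over the whole window Nnat held 181 ChIP tags and Grb10 139. ChIP tags made up 94.7% of both libraries' tags at Grb10 (95% exact binomial interval 88.9% to 98.0%) and 71.8% at Impact (59.9% to 81.9%), the highest and the lowest of the 10 shares. All 10 intervals lay above 50.7%, the ChIP share of all tags, although the spans were centred on bins picked for their ChIP tags. Summed over the 10 spans, 652 ChIP tags lay at 611 positions and strands, 302 on the plus and 350 on the minus strand, so that repeated positions added little to them. The 124 input tags of the same spans lay at 96 positions.

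Called clusters varied in number and width between the genes, and differences in shape were not tested. Nnat had 2 separate clusters in its window, each 1 kb wide, the other one reaching 24 tags at a distance of 1.25 kb from the highest bin. Mest had a cluster of 2 kb at its highest bin and another that crossed the window's edge 5 kb away, with a height of 19 tags. Grb10 had 6 called bins in a cluster of 1.5 kb, with 17, 20, 21, 9, 20 and 10 ChIP tags in succession against 0, 0, 0, 1, 4 and 1 input tags. Peg10 had a low and wide cluster of 2 kb in which 4 bins were called, and its bins with 5 or more ChIP tags spanned 3.5 kb. Airn, Snrpn and Kcnq1ot1 had clusters of 1.25 kb, and Plagl1 and Impact clusters of 0.5 kb. Cluster width depends on the limit for a call, and bins with 5 or more ChIP tags spanned 1.25 kb at Plagl1 and 1.75 kb at Impact.

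At Peg3 the tags formed a plateau and not a summit. From chr7:6680751 to 6683250, 10 successive bins held 6, 9, 3, 7, 6, 5, 6, 7, 8 and 9 ChIP tags, and the last of these was the called one. The same stretch of 2.5 kb held 66 ChIP tags and 10 input tags. The remaining input tags of the window lay on either side of the plateau, with up to 9 in a bin, so that the input of the surrounding 5 kb, and not the genome mean, set the level that a Peg3 bin had to exceed. With the genome mean alone, which called 1.72% of all bins, 5 bins of the Peg3 window were called. The height of Peg3 describes a single bin, and its 9 bins with 5 or more ChIP tags equalled the number at Nnat and Peg10. By other measures its place varied. From the first to the last such bin, Peg3 held 66 ChIP tags, Peg10 91 and Nnat 130. By that count Peg3 also lay below Mest, Grb10 and Airn, and above Impact, Kcnq1ot1, Snrpn and Plagl1. In ChIP tags of the whole window it lay above the same 4 genes and below the others. In the 9 bins centred on the highest one it held more ChIP tags than Snrpn and Plagl1 only. The odds ratio of window over flanks at Peg3, 1.37, was the lowest of the 10 genes.

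Set among all 44027 called clusters of the genome, the imprinted regions ranged from below the median to well above the upper quartile. The median height was 13.5 tags for the 10 genes and 12 tags for all clusters, whose upper quartile was 18 tags. A height of at least that of Mest was reached by 8.08% of clusters, that of Nnat by 13.6%, that of Grb10 by 20.1% and that of Airn by 29.6%. At least as high as Peg10 were 40.6% of clusters and as Impact 45.7%. For Kcnq1ot1, Snrpn and Plagl1 the share was 61.2%, and for Peg3 it was 83.0%. By ChIP tags in the 9 bins centred on the highest one, the share of clusters at least as high was 8.29% for Grb10 and 48.0% for Peg3, both smaller than by height, and 21.6% for Nnat, larger than by height, and 8 of the 10 genes were over the median of 43 tags. These shares are descriptions, since clusters near the lowest callable height of 7 tags are numerous and CpG islands were not marked among them. For comparison, the 4 clusters in a region of chromosome 3 that the study displays had heights of 8, 13, 33 and 36 tags. The lowest of them is a single called bin. By height, all 10 imprinted genes, at 9 to 30 tags, lay above that bin and below the clusters of 33 and 36 tags. The 95% Poisson intervals of Mest (20.2 to 42.8) and of the cluster of 33 tags (22.7 to 46.3) overlapped. In the 9 bins centred on the highest one, the 4 clusters held 13, 48, 109 and 118 ChIP tags, in order of height. By that count Mest, with 116, lay above the cluster of 33 tags, and Grb10, with 108, lay just below it.

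**Figure D3:**
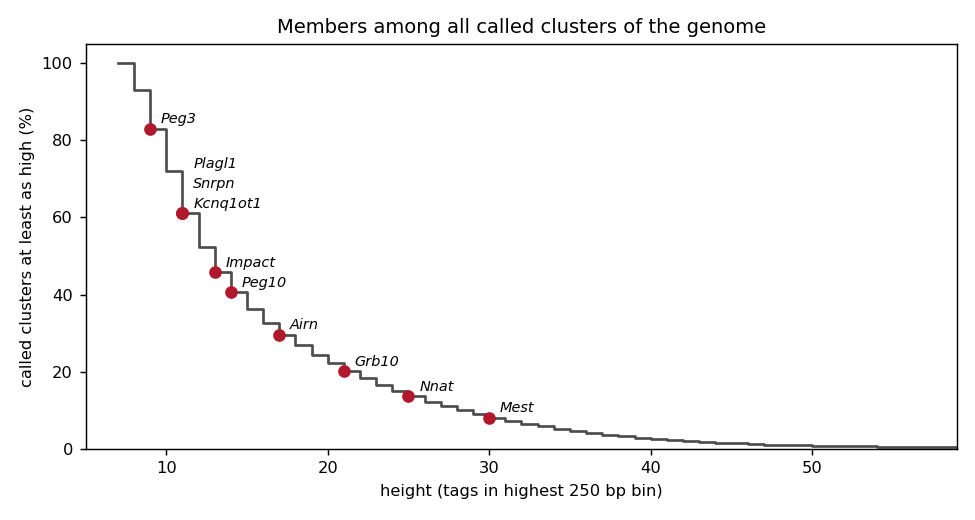
Share of all 44027 called clusters of the genome (%) that are at least as high as a given height in tags per 250 bp bin (grey line), with the 10 imprinted genes as red points. Mest sits at 8.08%, Peg3 at 83.0%, and Kcnq1ot1, Snrpn and Plagl1 share the point at 61.2%.

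The whole 10 kb window was compared with the 100 kb of its flanks, which does not depend on the bin picked for its height. ChIP tags relative to input were higher in the window at 8 of 10 genes at an adjusted p of 0.05 (two-sided Fisher exact test, Benjamini-Hochberg over 10 genes). Mest had the largest difference, with 218 ChIP and 44 input tags in the window against 245 and 306 in the flanks, an odds ratio of 6.17 (95% interval 4.25 to 9.12, adjusted p = 5.80e-26, Fisher exact test). The right flank of Mest held only 37 ChIP and 45 input tags, and 132 of its flank bins lay in 10 kb blocks without a tag of either library, which leaves its left flank to supply most of the comparison. Snrpn followed with an odds ratio of 3.74 (2.20 to 6.45), with 53 ChIP and 29 input tags in the window and 114 and 234 in the flanks. Its flanks were the poorest of the 10 in ChIP tags, at 1.14 per kb, so that Snrpn, low by its highest bin, stood out from its neighbourhood. Peg10 came next with 103 ChIP and 34 input tags in the window, 342 and 404 in the flanks and an odds ratio of 3.57 (2.33 to 5.58).

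For Grb10 the odds ratio was 2.66 (95% interval 1.89 to 3.79) and for Nnat 2.58 (1.88 to 3.58). Airn had 1.80 (1.27 to 2.57), Plagl1 1.73 (1.11 to 2.73) and Kcnq1ot1 1.59 (1.10 to 2.31), with adjusted p of 0.00108, 0.0164 and 0.0164 by the Fisher exact test. Peg3 and Impact did not pass. At Peg3 the window held 95 ChIP and 80 input tags and the flanks 403 and 466, an odds ratio of 1.37 (0.978 to 1.93, adjusted p = 0.0570, Fisher exact test). At Impact the window held 69 and 37 and the flanks 564 and 459, an odds ratio of 1.52 (0.983 to 2.37, adjusted p = 0.0569, Fisher exact test). With flanks stripped of called clusters, Peg3 reached 1.404 (adjusted p = 0.0461) and Impact 1.82 (adjusted p = 0.00602, Fisher exact test), and all 10 genes passed. Clusters called for their ChIP tags were taken from the flanks only and kept in the windows, which favours a higher ratio. With repeated tags dropped, Plagl1 fell to 1.42 (0.898 to 2.28) and no longer passed (adjusted p = 0.129), whereas Peg3 passed at 1.55 (adjusted p = 0.0270, all by the Fisher exact test).

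**Figure D4:**
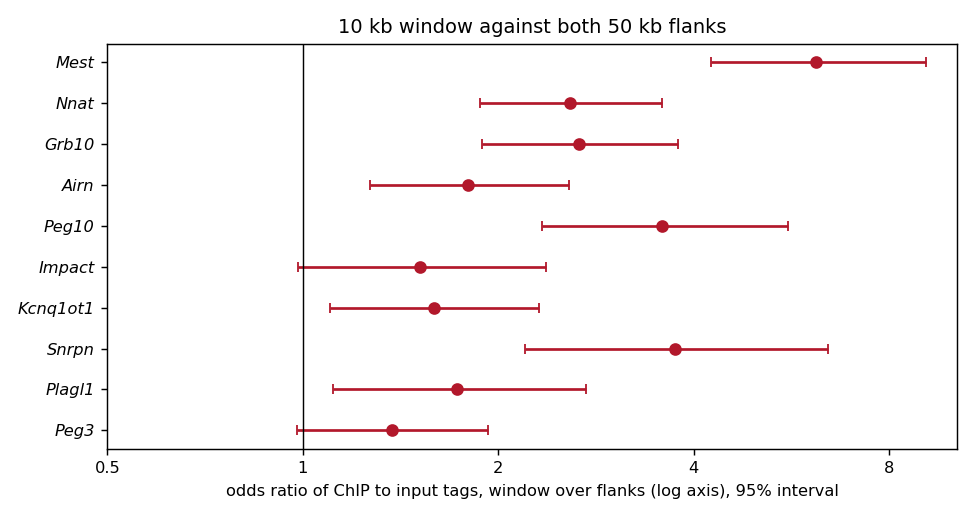
Odds ratio of ChIP to input tags in the 10 kb window over both 50 kb flanks (circles, log axis) with its 95% interval, for the 10 genes in order of height. Mest lies at 6.17 and the intervals of Peg3 and Impact include 1.

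Between genes, the share of ChIP tags in the whole window also varied, and 13 of 45 pairs passed (Fisher exact test, adjusted p of 0.05). Mest exceeded Peg3, Snrpn, Kcnq1ot1, Airn, Grb10, Plagl1 and Impact, and its second cluster at the edge of the window is part of this value. Relative to Mest, the odds ratio was 0.241 for Peg3 (95% interval 0.150 to 0.381) and 0.288 for Kcnq1ot1 (0.176 to 0.470). Peg3 was also below Peg10, Airn, Grb10 and Nnat, and Kcnq1ot1 below Peg10 and Nnat. Mest and Nnat were not told apart after adjustment (1.64, 1.04 to 2.61, adjusted p = 0.0830, Fisher exact test), nor were Peg10 and Mest (0.612, 0.359 to 1.05, adjusted p = 0.157, Fisher exact test).

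The flanks were not empty of KDM2A. They held 17 called clusters around 7 of the 10 genes, none of them placed at a gene here, and 9 of the 17 were at least as high as the member between them. Around Plagl1, with 11 tags, clusters of 24 tags lay 29.8 kb to its left and 37.8 kb to its right. Around Impact, with 13 tags, clusters of 22 and 29 tags lay 32.0 and 24.3 kb to the left, the second of them a single bin. Airn, with 17 tags, had clusters of 26 tags at 54.3 kb to the left and of 22 tags at 27.3 kb to the right. Grb10, with 21 tags, had a cluster of 29 tags 11.3 kb to the right. Its 9 central bins held 112 ChIP and 17 input tags, and the same span at Grb10 held 108 and 6. Kcnq1ot1 and Peg3 each had a flank cluster of their own height, 11 and 9 tags, whereas the 3 flank clusters of Nnat, of 9 to 21 tags, were lower than its highest bin. The flanks of Snrpn and Peg10 held no called bin, and those of Mest held only the outer bin of the cluster that crosses its window's edge. Outside called clusters, the flanks of the 10 genes held 1.14 to 7.13 ChIP tags and 2.34 to 6.44 input tags per kb.

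**Figure D5:**
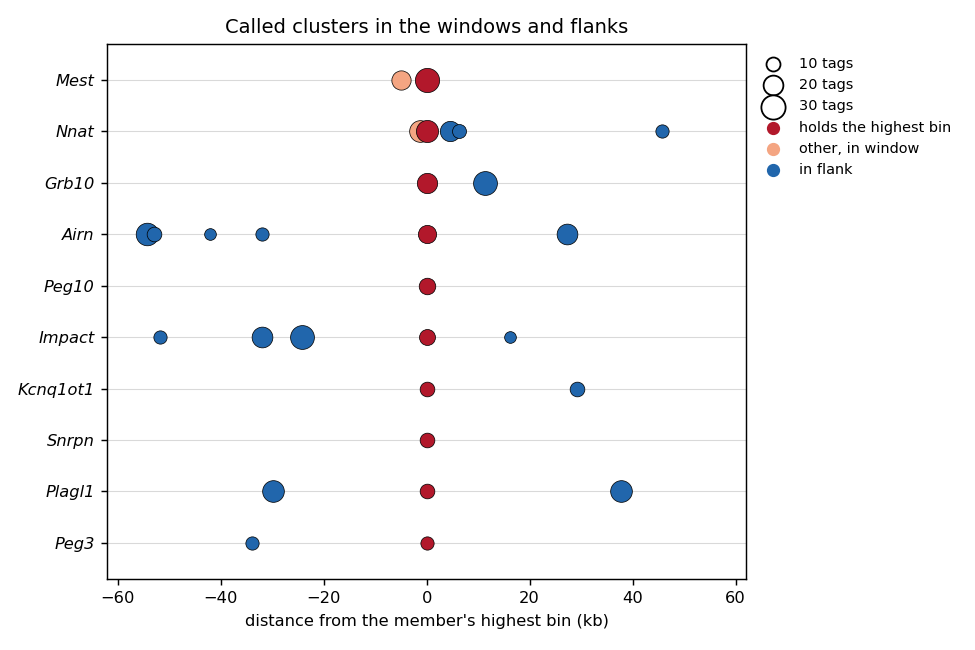
Called clusters in the window and in 50 kb on either side, by distance in kb from the highest bin of each gene, with the area of a circle in proportion to its height in tags. Red circles hold the gene's highest bin, orange circles are other clusters of the window, and blue circles are the 17 clusters of the flanks, which are absent around Mest, Peg10 and Snrpn.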

How the data were processed

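KDM2A ChIP and input DNA of mouse ESCs were sequenced as 1 library each, after 18 cycles of PCR. The authors deposited raw counts, one line for every occupied position on a strand. Bowtie and mm9 are named in the submitters' processing notes, and alignment settings are not given in the sources used here. Promoter sequences came from RefSeq for GRCm38.p6 and were used by symbol only, with no conversion of coordinates.

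Tags were moved 50 bp in the direction of their strand and summed per 250 bp bin, over 10130200 bins in 10 kb blocks that held a tag. The input was scaled by 1.03 to equal totals. All bins entered a one-sided exact Poisson test with Benjamini-Hochberg adjustment. Windows were compared by Fisher's exact test and highest bins by an exact binomial test, both two-sided. Depth was 10042076 ChIP and 9760426 input tags. Intervals cover counting error only, since there was no replicate. PCR copies are not independent molecules, so that the intervals may be too narrow even for counting error. Ties for the highest bin were settled by the lower adjusted p. The named genes were all 10 members. The members, windows and tests were chosen with earlier results of these data known. Alternatives dropped repeated tags, left tags unmoved, used 500 bp bins or a moved grid, an adjusted p limit of 0.0001, the genome mean alone, and flanks of 20 kb or free of clusters. A comparison over 9 bins was chosen after seeing the data. Calls were tested on simulated data. Python 3.11.15, numpy 2.4.6, pandas 2.3.3, scipy 1.17.1 and matplotlib 3.10.9 were used.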

Additional observations from a re-analysis of the deposited data

How the results depend on the processing

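No paired analysis was possible because ChIP and input were 1 library each, and no replicate could be left out. All 10 windows held a called bin under every alternative except an adjusted p limit of 0.0001, under which Peg3 and Kcnq1ot1 had none and 8 windows remained. Shares of all 10 kb windows are given for the main setting only. The number of called window bins of 250 bp, 42, lay between 28 and 50. It was 28 at the adjusted p limit of 0.0001, where 0.615% of all bins were called. It was 50 with the genome mean alone, where 1.72% of all bins were called. The height of each of the 10 genes stayed within its Poisson interval in the 3 alternatives run. Those 3 alternatives recounted the same tags, so that a height could hardly leave so wide an interval. The 4 pairs of highest bins past the limit became 0 with repeated tags dropped, 2 without movement of tags, 0 with the bin grid moved by 0.5 of a bin, and 22 with the tags of the 9 bins around the highest one, which was added after the data were seen and counts more tags. The cause of the other changes was not tested. With input tested against ChIP, 5 window bins were called with the genome mean alone and 0 in the 4 other alternatives run for it, which did not include 500 bp bins. The share of all bins called in that exchanged test is given for the main setting only. The number of genes whose window exceeded its flanks, 8, was 9 with flanks of 20 kb and 10 with flanks free of called clusters. The last of these settings removes high ChIP bins from the flanks alone, so that it could hardly lower the number. Pairs of windows past the limit were 13, and 12 with repeated tags dropped. A highest bin of 9 to 30 tags leaves wide intervals, and differences between neighbouring genes in the order of height were not detectable at this depth.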
